A study of Mus musculus with 8 samples.

Results

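The genes that control mitochondrial fission and fusion were examined in whole mouse mammary glands after injection of breast cancer-derived sEVs (small extracellular vesicles). Members were 10 genes taken by name from the deposited table of 51789 genes, and 10 of 10 were found: the fission genes Dnm1l, Mff, Fis1, Mief1 and Mief2, the fusion genes Mfn1, Mfn2 and Opa1, and the OPA1 protease genes Oma1 and Yme1l1. Female C57BL/6 mice had received a single sEV injection into the mammary gland, and glands were profiled by RNA sequencing 6 weeks later. The vesicles came from the AT3 line, mouse mammary adenocarcinoma cells that metastasize, kept in normoxia (sEVNORM, 3 libraries) or in hypoxia (sEVHYP, 2 libraries). Control vesicles were prepared from medium that had not been conditioned by cells (sEVCTRL, 3 libraries), so all 8 glands had received an injection. Libraries of a group were separate animals, and the age of the mice was not given in the sources used here. Each vesicle condition rests on 1 tumor line, and sEVHYP rests on 2 animals. The comparisons ask whether hypoxic vesicles alter the gland transcriptome in comparison with either control.

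Mitochondria form a network that is cut by fission and joined by fusion. In fission, the dynamin-related GTPase DRP1 (gene Dnm1l) is drawn from the cytosol to the outer membrane by the adaptors MFF, FIS1, MID51 (gene Mief1) and MID49 (gene Mief2), and constricts the organelle. In fusion, the mitofusins MFN1 and MFN2 join outer membranes and OPA1 joins inner membranes. The inner membrane proteases OMA1 and YME1L cleave OPA1 and so set the balance of its long and short forms. Much of this control acts on proteins, by phosphorylation, cleavage and turnover, which messenger RNA levels do not show. In the mammary gland these genes are active in fat, epithelium, muscle and immune cells alike, and in whole-gland RNA fewer cells of a type and less RNA per cell cannot be told apart.

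On GRCm38 all 10 genes are protein coding and lie on 8 chromosomes. Among the fission genes, Dnm1l (ENSMUSG00000022789) lies at chr16:16312230-16358959 on the minus strand. Mff (ENSMUSG00000026150) is at chr1:82724890-82752394, Fis1 (ENSMUSG00000019054) at chr5:136953275-136966234, Mief1 (ENSMUSG00000022412) at chr15:80234018-80253371 and Mief2 (ENSMUSG00000018599) at chr11:60728398-60732951, each on the plus strand. Of the fusion genes, Mfn1 (ENSMUSG00000027668) is at chr3:32529465-32579239 and Opa1 (ENSMUSG00000038084) at chr16:29579334-29654884 on the plus strand, and Mfn2 (ENSMUSG00000029020) is at chr4:147873599-147904704 on the minus strand. The protease genes Oma1 (ENSMUSG00000035069) at chr4:103313812-103371868 and Yme1l1 (ENSMUSG00000026775) at chr2:23156369-23199260 are on the plus strand. Mief1 shares 213 exon bases with AC140267.1 on the same strand, a gene with no value in the table, so its counts are uncertain to that extent. Mff shares 195 exon bases with the antisense C430014B12Rik, which had at most 14 counts in a library, and Yme1l1 has a copy, Gm14897, with at most 2 counts. Dnm1l shares 243 exon bases with the antisense Gm49521, and whether counting used strand was not given in the sources used here.

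The sequence upstream of each gene was read from RefSeq promoters (GRCm38.p6, 250 bases before the start) and searched on both strands for 6 motifs, of which 3 were found in a member. Opa1 was the 1 member with the NRF1 palindrome, which starts 59 bases before the start site and is in 0.782% of 32851 promoters. The ETS core CCGGAAG was in Fis1, Mfn1, Mief1 and Yme1l1, and is in 6.91% of promoters. Yme1l1 was the 1 member that held it more than once, at 73 and 19 bases before the start. The E-box CACGTG was in Mief2, 24 bases before the start, and is in 6.02% of promoters. No member held AAGGTCA (4.08% of promoters), TGACGTCA (1.55%) or the YY1 core (0.301%), and no listed motif overlapped another within a member. The GC content of the 10 windows ran from 46.0% (Mff) to 69.6% (Mief1), against a median of 52.4% over all promoters. Opa1 (chr16:29579084-29579333), Yme1l1 (chr2:23156255-23156504) and Mief2 (chr11:60728148-60728397), all on the plus strand, are shown because each holds a different motif or arrangement, with the motif in capitals. A match is a description of letters and not of binding.
Opa1: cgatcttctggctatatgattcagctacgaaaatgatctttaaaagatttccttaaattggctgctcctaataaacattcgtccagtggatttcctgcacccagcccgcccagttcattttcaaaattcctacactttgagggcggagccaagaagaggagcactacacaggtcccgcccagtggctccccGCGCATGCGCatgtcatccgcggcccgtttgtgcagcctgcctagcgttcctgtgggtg
Yme1l1: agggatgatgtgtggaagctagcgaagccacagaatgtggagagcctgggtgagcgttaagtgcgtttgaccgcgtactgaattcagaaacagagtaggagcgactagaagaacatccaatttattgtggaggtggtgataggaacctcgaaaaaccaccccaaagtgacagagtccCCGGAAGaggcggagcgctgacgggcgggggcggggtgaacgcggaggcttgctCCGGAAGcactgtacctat
Mief2: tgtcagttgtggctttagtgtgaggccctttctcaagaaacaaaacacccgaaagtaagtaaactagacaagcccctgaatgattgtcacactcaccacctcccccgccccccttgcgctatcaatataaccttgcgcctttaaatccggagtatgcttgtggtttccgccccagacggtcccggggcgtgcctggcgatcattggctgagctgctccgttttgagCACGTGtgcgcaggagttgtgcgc

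Total counts were 18194996 to 24622569 per library, and CPM are counts scaled for these totals with TMM factors of 0.975 to 1.02. White adipocyte and luminal epithelium markers were expressed in all 8 glands (10 of 10 tested in each list, none at 0 in every library of a group), as the tissue label requires. Skeletal muscle markers, a tissue that lies beneath the gland, varied most: the summed CPM of 12 markers was 654 to 8331 for sEVCTRL, 10.5 to 2891 for sEVNORM and 4458 to 12282 for sEVHYP, with the lowest value in sEVNORM replicate 2. Of these 12 markers, 10 had a positive log2 fold change for sEVHYP against sEVNORM and 12 a negative one for sEVNORM against sEVCTRL, and 0 passed the test. Brown adipocyte markers, of a cell type rich in mitochondria, had a summed CPM of 18.2 to 25.3 for sEVCTRL, 21.2 to 30.4 for sEVNORM and 32.8 to 58.0 for sEVHYP. By this sum both sEVHYP glands were above all others. By the mean log2 CPM of the tested markers, sEVNORM replicate 2 (2.19) was above sEVHYP replicate 1 (1.96). Of 8 listed, 6 were tested. At an unadjusted P below 0.05 Cox7a1 passed as higher against sEVNORM, where 2.25% of all genes tested passed as higher. Dio2 and Ucp1 passed as higher against sEVCTRL, where 1.39% of all genes did. Against sEVNORM 5 of the 6 were positive and Lhx8 was negative (-0.17), and against sEVCTRL 6 of 6 were positive. Ucp1 was near 0 in sEVCTRL glands, with a mean of 0.068 CPM beside 0.80 for sEVNORM and 3.24 for sEVHYP. The part of the brown adipocyte markers in the results was not tested. sEVCTRL replicate 3 stood farthest from the other libraries over 10407 genes with a mean log2 CPM of at least 3. Its median absolute deviation was 0.253 (log2) against 0.123 to 0.217 for the remaining 7. Short genes among these 10407 (under 2 kb of exon) were shifted in several libraries. The median shift on the log2 scale was 0.14 in sEVCTRL replicate 3, 0.13 in sEVCTRL replicate 1, -0.18 in sEVCTRL replicate 2 and -0.12 in sEVNORM replicate 3.

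All members were expressed, and per kilobase of exon their levels spanned a wide range. Dnm1l had the highest median over the 8 glands, 31.8 CPM per kilobase, above 91.8% of the 17817 tested genes with a length. Yme1l1 followed at 21.5, and Mff (16.7), Mfn2 (14.4), Fis1 (14.4) and Opa1 (12.4) formed a group within which each neighbour overlapped the next. Oma1 had 6.33 and Mfn1 4.73 CPM per kilobase. The MiD adaptors were lowest, with a median of 2.62 CPM per kilobase for Mief1 and 0.640 for Mief2, the latter above 20.8% of tested genes. In this order the ranges of neighbouring genes overlapped over the 8 libraries except between Opa1 and Oma1, between Mfn1 and Mief1, and between Mief1 and Mief2. With the length of the longest transcript in place of all exons, Mff moved from rank 3 to rank 2 (41.6) and Fis1 from rank 5 to rank 4 (26.0), while the order from Opa1 down stayed as given. The longest annotated Mff transcript is a model of 1 exon among 16 transcripts. The level of Mff (16.7 or 41.6) is therefore uncertain with the choice of length.

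**Figure D1:**
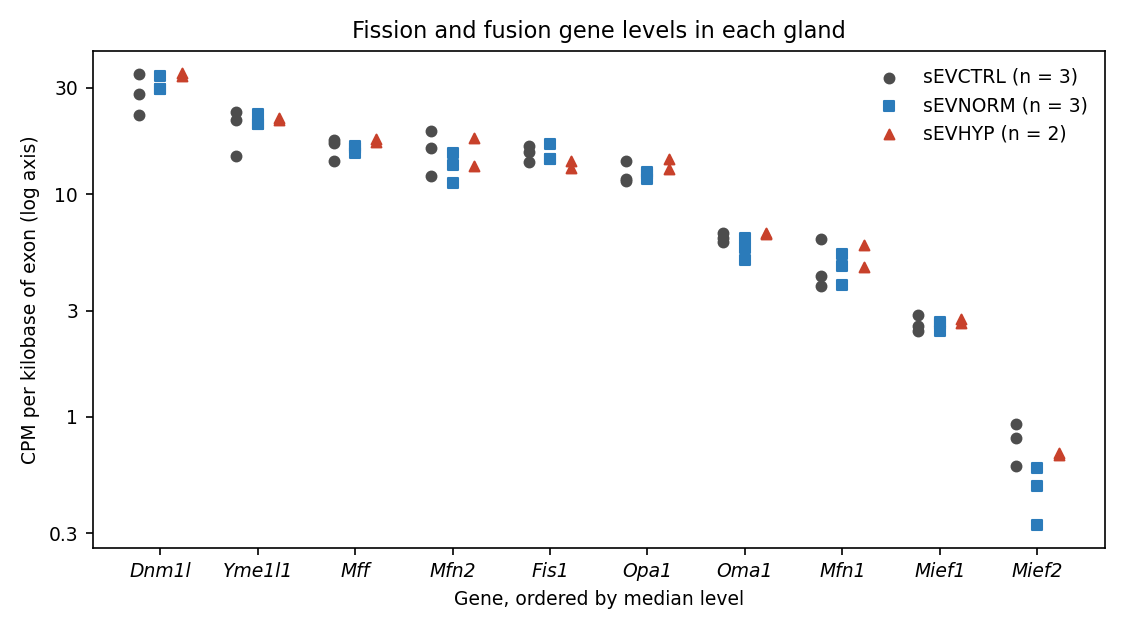
Level of each fission and fusion gene in each of the 8 glands, as CPM per kilobase of exon on a log axis, with genes ordered by their median and 1 symbol per library. Dnm1l lies highest (22.7 to 34.8) and Mief2 lowest (0.326 to 0.927), and for 4 of the 10 genes sEVHYP and sEVNORM glands overlap.

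Within a gene, most members varied little between glands. The highest library exceeded the lowest by 1.19-fold for Mief1, 1.25-fold for Opa1 and for Mff, 1.27-fold for Fis1 and 1.33-fold for Oma1. For Dnm1l the ratio was 1.54, for Yme1l1 1.58, for Mfn1 1.64 and for Mfn2 1.70. Mief2, with 20 to 46 counts per library, spanned 2.84-fold, and was the 1 member above the median ratio of 1.90 among tested genes with a value in every library. The other 9 members had 229 to 4139 counts per library.

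Against sEVNORM, which addresses the effect of hypoxia in the cells that released the vesicles, sEVHYP glands had slightly higher values for 9 of 10 members, and 0 passed the test in either direction. The median log2 fold change of the members was 0.16. Over all 17858 genes tested the median was -0.02 and 47.0% were positive. The members' median was 0.06 without sEVHYP replicate 2 and 0.20 without sEVHYP replicate 1. With edgeR's quasi-likelihood test, 3.95% of all genes tested had an unadjusted P below 0.05, 2.25% higher and 1.7% lower, and 0 genes had an adjusted P below 0.05. The member with the smallest unadjusted P was Mief2 (0.199), and the adjusted P (Benjamini-Hochberg) of all 10 was 1.00 after rounding. The groups did not overlap for 5 members with higher sEVHYP values and for 1 with lower values. Over all genes tested 22.8% showed no overlap, 12.3% with higher and 10.5% with lower values.

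Among fission genes, Dnm1l, the GTPase itself, had 177 and 181 CPM in the sEVHYP glands and 154, 177 and 154 CPM in the sEVNORM glands. Both sEVHYP libraries were higher, the lower of them by less than 1 CPM. Its log2 fold change was 0.15 (SE 0.19, 95% interval -0.28 to 0.58), so the interval reaches from a decrease to an increase. Mff, an outer membrane adaptor that recruits DRP1, had 167 and 172 CPM for sEVHYP and 149.8, 161 and 157 CPM for sEVNORM. These groups did not overlap either, and the log2 fold change was 0.12 (SE 0.15, 95% interval -0.22 to 0.46).

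Fis1, a tail-anchored outer membrane adaptor, was the 1 member with a negative log2 fold change. It had 24.0 and 22.5 CPM for sEVHYP and 28.6, 24.7 and 24.6 CPM for sEVNORM, and both sEVHYP glands were lower. The difference was -0.16 on the log2 scale (SE 0.16, 95% interval -0.53 to 0.21). Mief1, which encodes MID51, had 21.3 and 22.3 CPM against 21.6, 21.2 and 19.6 CPM, with overlap and a log2 fold change of 0.07 (SE 0.16). Its paralog Mief2, which encodes MID49, had 1.83 and 1.87 CPM for sEVHYP and 1.61, 0.887 and 1.32 CPM for sEVNORM. The sEVHYP glands were above all sEVNORM glands, with a log2 fold change of 0.54 and an interval of -0.34 to 1.41 (SE 0.39), the widest of the members.

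Among fusion genes, Opa1 had 102 and 113 CPM in sEVHYP glands and 96.5, 91.8 and 98.4 CPM in sEVNORM glands. The groups did not overlap, and the log2 fold change was 0.17 (SE 0.15, 95% interval -0.17 to 0.51, unadjusted P = 0.283 by edgeR). Mfn1 had 28.9 and 36.2 CPM for sEVHYP and 29.0, 24.0 and 32.9 CPM for sEVNORM, which overlap. Mfn2 had 69.3 and 92.7 CPM for sEVHYP and 70.2, 58.4 and 79.5 CPM for sEVNORM, with overlap as well. For both mitofusins sEVHYP replicate 2 was above every sEVNORM gland while replicate 1 lay among them, and the log2 fold changes were 0.18 (SE 0.25) for Mfn1 and 0.22 (SE 0.23) for Mfn2. Mfn2 was at -0.01 without sEVHYP replicate 2 and at 0.42 without sEVHYP replicate 1.

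The OPA1 proteases differed from each other in their values. Oma1, the stress-responsive protease, had 14.2 and 14.4 CPM in the sEVHYP glands and 12.3, 13.6 and 10.8 CPM in the sEVNORM glands. The groups did not overlap, with a log2 fold change of 0.23 (SE 0.18, 95% interval -0.18 to 0.64). Yme1l1, the i-AAA protease, had 172 and 175 CPM against 165, 183 and 165 CPM. These values overlapped, and the log2 fold change was 0.02 (SE 0.20, 95% interval -0.43 to 0.47).

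**Figure D2:**
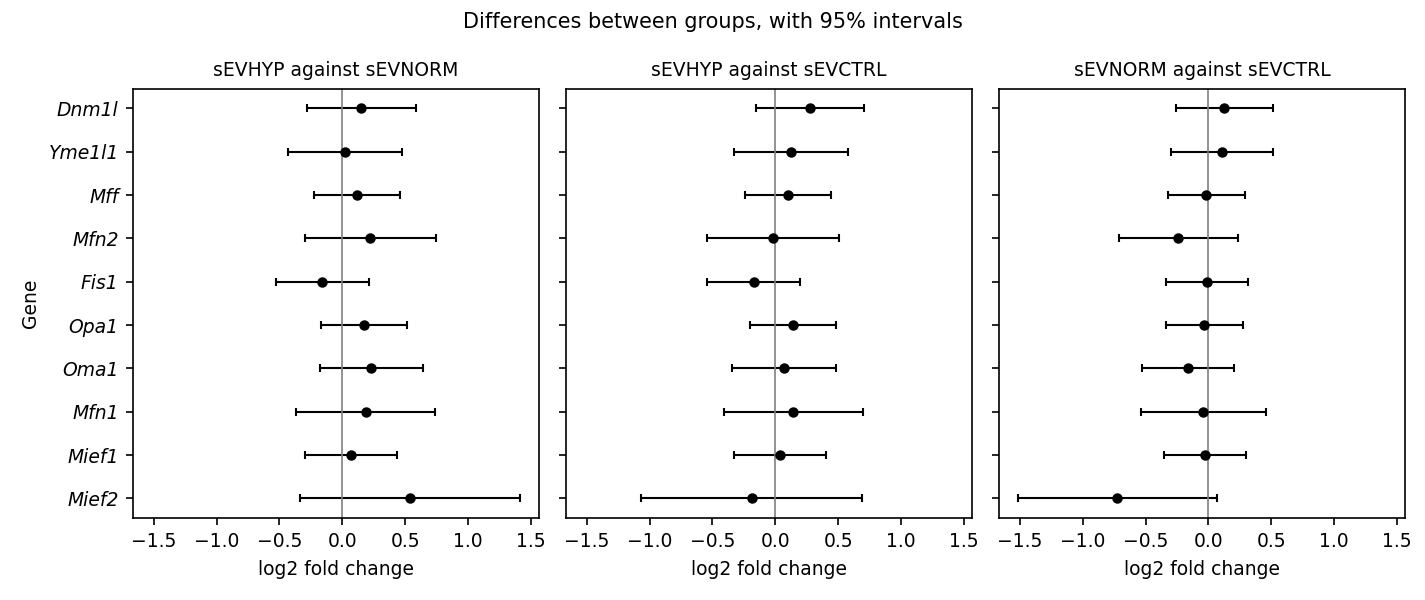
Log2 fold change of each gene in the 3 comparisons, with points for the estimate of the 3-group edgeR model and bars for the 95% interval. Every interval spans 0, and the interval of Mief2 is the widest in each panel.

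Against sEVCTRL, which asks about tumor vesicles from hypoxia against medium vesicles, the members lay on both sides of 0. A positive log2 fold change was seen for 7 members and a negative one for 3, beside 47.5% positive among all genes tested. The members' median was 0.09 (0.01 without sEVCTRL replicate 3 and 0.02 without sEVHYP replicate 2). Of the members 0 passed the test, where 2.45% of all genes tested did (1.39% higher and 1.06% lower). For 0 members were the groups without overlap, where the share over all genes tested was 12.8% (6.7% higher and 6.08% lower). Dnm1l had the largest value, 0.28 (SE 0.19, 95% interval -0.15 to 0.71, unadjusted P = 0.181 by edgeR). Its sEVCTRL glands had 146, 179.9 and 118 CPM, so that the highest sEVCTRL gland lay between both sEVHYP glands. Without sEVCTRL replicate 2 the value was 0.44 with an unadjusted P of 0.0302 by edgeR and an adjusted P of 0.578, and 1472 of 17701 genes (8.32%) then had an unadjusted P below 0.05, instead of 438. Without sEVCTRL replicate 3 the value was 0.14 with an unadjusted P of 0.421 by edgeR.

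Opa1 had 90.4, 111 and 91.8 CPM in sEVCTRL glands, and its log2 fold change was 0.14 (SE 0.15). Mfn1 had 26.1, 38.6 and 23.6 CPM, and the corresponding value was 0.14 (SE 0.25). In both genes sEVCTRL replicate 2 was high and near sEVHYP replicate 2. Mfn2 had 62.5, 83.7 and 99.4 CPM in sEVCTRL glands, the last above both sEVHYP glands, and the difference was -0.02 on the log2 scale (SE 0.23). Yme1l1 had 172, 187 and 118 CPM in sEVCTRL glands, with a value of 0.13 (SE 0.20). Smaller or negative log2 values were seen for the others, 0.10 for Mff, 0.07 for Oma1, 0.04 for Mief1, -0.17 for Fis1 and -0.19 for Mief2.

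Between the vesicle controls, sEVNORM against sEVCTRL, differences were small except for Mief2. The members had a median log2 fold change of -0.03, with 2 positive and 8 negative values, beside 49.8% positive among all genes tested. Of the members 0 passed the test, where 1.62% of all genes tested did (0.89% higher and 0.734% lower). Mief2 had 2.18, 1.64 and 2.52 CPM in sEVCTRL glands, all above the sEVNORM glands at 1.61, 0.887 and 1.32 CPM. The groups did not overlap for this 1 member, where 4.86% of all genes tested had none, 2.69% as higher and 2.17% as lower. In counts, the libraries held 43, 36 and 46 reads for sEVCTRL and 40, 20 and 28 for sEVNORM. The log2 fold change was -0.72 (SE 0.35, 95% interval -1.52 to 0.07, unadjusted P = 0.0680 and adjusted P = 1.00 by edgeR). With at least 10 counts required in every library the unadjusted P was 0.0471, and without sEVCTRL replicate 2 the value was -0.88 with an unadjusted P of 0.0456, and the adjusted P was 1.00 and 0.785. Other omissions weakened it, to -0.58 (unadjusted P = 0.168 by edgeR) without sEVCTRL replicate 3 and to -0.52 (unadjusted P = 0.202 by edgeR) without sEVNORM replicate 2. The closest sEVCTRL and sEVNORM glands were 1.64 and 1.61 CPM.

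For the other members the sEVNORM and sEVCTRL glands overlapped. Mfn2 had a log2 fold change of -0.24 (SE 0.21) and Oma1 of -0.16 (SE 0.16), the latter from 13.6, 13.0 and 14.4 CPM in sEVCTRL glands. Dnm1l was at 0.13 and Yme1l1 at 0.11. Mfn1, Opa1, Mief1, Mff and Fis1 lay between -0.04 and -0.01. All 3 comparisons share libraries, so a gland that was high or low in sEVNORM entered both comparisons with that group.

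**Figure D3:**
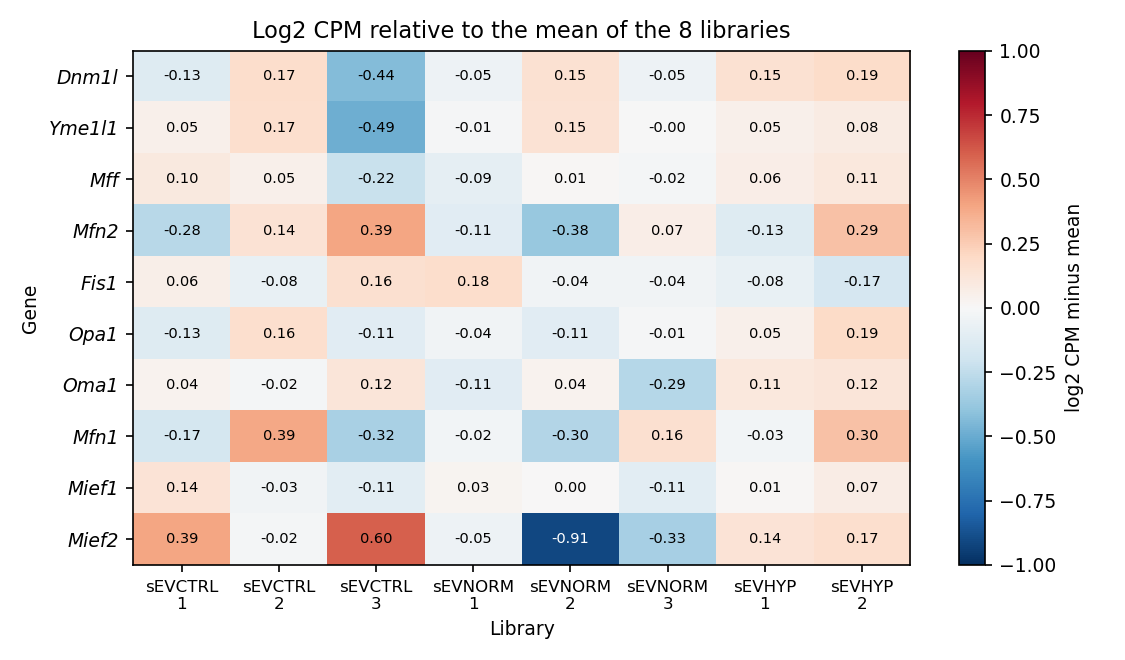
Log2 CPM of each gene in each library minus its mean over the 8 libraries, with genes in the order of their level, red for higher and blue for lower values. sEVCTRL replicate 3 holds the lowest Dnm1l (-0.44) and Yme1l1 (-0.49) together with the highest Mief2 (0.60), and sEVNORM replicate 2 the lowest Mief2 (-0.91).

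Single glands stood out more than groups. sEVCTRL replicate 3 had the lowest Dnm1l, Yme1l1, Mff and Mfn1 of all 8 libraries and the highest Mfn2 and Mief2. This is the library that deviates most over the 10407 genes with a mean log2 CPM of at least 3. Dnm1l (5.20 kb of exon) and Yme1l1 (8.01 kb) were both at 118 CPM there, while Mfn2, with 5.19 kb of exon, was at 99.4 CPM, its highest value. Among the 10407 genes, those over 6 kb of exon had a median shift of -0.12 (log2) in sEVCTRL replicate 3. Yme1l1, Mff, Mfn1, Opa1 and Mief1 belong to this class. In that library they were at -0.49, -0.22, -0.32, -0.11 and -0.11 relative to their means. Fis1 belongs to the class under 2 kb, which had a median shift of 0.14, and was at 0.16. Whether the composition of that gland or its RNA took part was not tested.

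Ratios within a library do not depend on the scaling between libraries, and are given per kilobase of exon. Mfn2 was 2.55 to 3.01 times Mfn1 in 7 libraries and 4.96 times in sEVCTRL replicate 3. The 3 sEVNORM ratios were 2.85, 2.87 and 2.84, and those of sEVHYP were 2.83 and 3.01. Mief2 to Mief1 was 0.28, 0.24 and 0.38 in sEVCTRL glands, 0.22, 0.12 and 0.20 in sEVNORM glands, and 0.26 and 0.25 in sEVHYP glands. The sEVNORM ratios were below all others. Oma1 to Yme1l1 ranged from 0.24 to 0.31 in 7 libraries and was 0.45 in sEVCTRL replicate 3. The summed level of the fusion genes Mfn1, Mfn2 and Opa1 relative to that of the 5 fission genes was 0.43, 0.53 and 0.61 in sEVCTRL, 0.47, 0.40 and 0.53 in sEVNORM, and 0.45 and 0.55 in sEVHYP glands. Both sEVHYP ratios fell within the range of the sEVCTRL glands. The sum of the 5 fission genes exceeded that of the 3 fusion genes in all 8 glands. Dnm1l had the largest part in the fission sum, with a median of 31.8 CPM per kilobase. Mief1 (2.62) and Mief2 (0.640) added little.

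**Figure D4:**
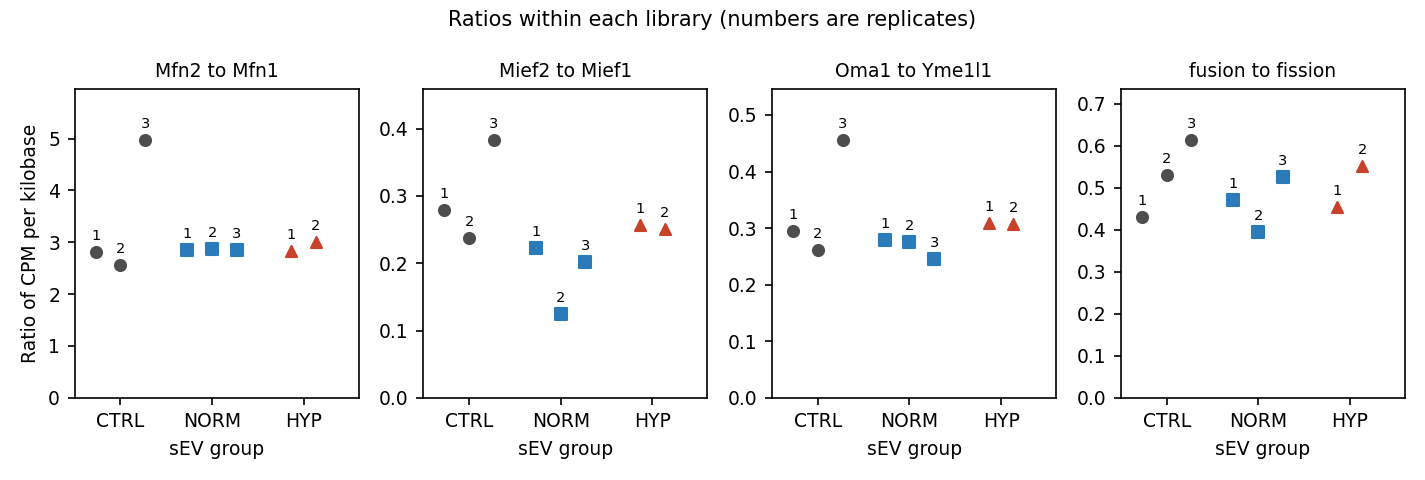
Ratio of levels (CPM per kilobase of exon) within each library for 3 gene pairs and for the summed fusion to fission genes, with numbers for replicates and 1 point per gland. sEVCTRL replicate 3 stands apart for Mfn2 to Mfn1 (4.96) and Oma1 to Yme1l1 (0.45), and the sEVHYP glands lie within the range of the sEVCTRL glands in each panel.

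Levels of the members were also set beside the tissue markers, as log2 CPM over the 8 libraries, in 30 relations of which 0 had an adjusted P below 0.05. Mfn2 followed the white adipocyte markers with Pearson r = 0.89 (exact permutation P = 0.00414, adjusted P = 0.124) and Spearman rho = 0.905 (exact permutation P = 0.00456, adjusted P = 0.0685), and r was 0.73 without the 2 libraries farthest from the median. Within groups this r was 0.93. Opa1 was related to the skeletal muscle markers with Pearson r = 0.727 (exact permutation P = 0.0314, adjusted P = 0.314) and Spearman rho = 0.929 (exact permutation P = 0.00223, adjusted P = 0.0670), and r was 0.92 without the 2 farthest libraries. Mfn1 gave r = 0.727 (exact permutation P = 0.0268, adjusted P = 0.314) and rho = 0.833 (exact permutation P = 0.0154, adjusted P = 0.154) with the same muscle markers, and r = 0.79 without those libraries. Within groups the r with muscle markers was 0.65 for Opa1 and 0.72 for Mfn1. Yme1l1 had r = -0.66 with the white adipocyte markers (exact permutation P = 0.0492, adjusted P = 0.369), and -0.10 without the 2 farthest libraries. With the muscle markers as a covariate in the model, the sEVHYP against sEVNORM value of Mfn1 was -0.07 instead of 0.18, 8 members had positive values and the median of the members was 0.09 instead of 0.16.

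The gene most alike each member was sought among all genes tested, by Pearson r of log2 CPM over the 8 libraries, as a description. For Mfn1 it was Sdc2 (r = 0.995), for Opa1 Prkar2a (0.992), for Yme1l1 Zfp51 (0.992), for Mff Eif1ax (0.988), for Dnm1l Ppp3r1 (0.988) and for Mief2 Ndufs3 (0.987). Fis1 was most like Dalrd3 (0.980) and Mfn2 most like Thsd1 (0.975). Oma1 and Mief1 were most like the pseudogenes Gm9619 (0.973) and Gm12663 (0.956), both of low level. Each was picked as the highest among 17858 genes over 8 libraries, and none was tested.

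Other genes of mitochondrial shape, transport and content were read from lists of 66 genes, of which 64 were tested. For sEVHYP against sEVNORM 5 rose and 0 fell at an unadjusted P below 0.05, which is 7.81% of those tested beside 3.95% of all genes, and 0 passed an adjusted P. Their median log2 fold change was 0.11 and 51 of 64 were positive, beside 47.0% of all genes tested. That median was 0.08 without sEVHYP replicate 2 and 0.18 without sEVHYP replicate 1. Against sEVCTRL 0 of 64 passed (median 0.08), and for sEVNORM against sEVCTRL 0 of 64 passed (median -0.07).

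The genes that rose included a pair of voltage-dependent anion channels and an ADP/ATP carrier. Vdac3 had 118 and 140.4 CPM in sEVHYP glands and 96.3, 87.6 and 90.7 CPM in sEVNORM glands, with a log2 fold change of 0.50 (SE 0.16, unadjusted P = 0.0122 by edgeR). Vdac1, the main outer membrane metabolite channel, had 193 and 240.4 CPM against 159, 120.3 and 158 CPM, at 0.57 (SE 0.22, unadjusted P = 0.0317 by edgeR). The groups did not overlap for either channel, where 22.8% of all genes tested had no overlap. These genes were named because they passed this test, so the separation adds no support to it. Slc25a4, the ADP/ATP carrier of heart and skeletal muscle, had 86.6 and 125 CPM against 76.9, 42.4 and 59.7 CPM, at 0.82 (SE 0.34, unadjusted P = 0.0399 by edgeR). In sEVCTRL glands Slc25a4 had 50.8, 109.5 and 67.4 CPM, so it overlapped sEVHYP. Vdac1 reached 210 CPM and Vdac3 119 CPM in sEVCTRL replicate 2, so both channels overlapped sEVHYP as well.

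Apoo, a subunit of the MICOS complex that shapes cristae, had 61.7 and 83.5 CPM in sEVHYP glands and 50.6, 42.7 and 52.7 CPM in sEVNORM glands, at a log2 fold change of 0.58 (SE 0.25, unadjusted P = 0.0489 by edgeR). Trak1, which links mitochondria to kinesin, had 73.3 and 89.8 CPM against 65.3, 53.4 and 64.4 CPM, at 0.42 (SE 0.17, unadjusted P = 0.0380 by edgeR). Both were without overlap between these groups, where 22.8% of all genes tested had none, and both were named by the same test. In sEVCTRL glands Apoo reached 71.6 CPM and Trak1 79.7 CPM, so both overlapped sEVHYP. With the skeletal muscle markers as a covariate 0 of the 64 genes passed (4.49% of all genes did), while the median of the 64 was 0.13 instead of 0.11. In that fit Vdac3 was at 0.40, Slc25a4 at 0.37, Apoo at 0.34, Vdac1 at 0.31 and Trak1 at 0.27. Without sEVHYP replicate 2 the number passing was 0 (2.21% of all genes). The count was 1 without sEVNORM replicate 2, the gland with the lowest muscle markers (2.84% of all genes), and 3 without sEVNORM replicate 1 (3.26% of all genes).

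By list, the 15 fission regulators held 12 positive values and 0 calls for sEVHYP against sEVNORM, with a median of 0.11. Gdap1, a fission factor of the outer membrane, had the largest value, 1.38 (SE 0.74), from a mean of 1.32 CPM against 0.362, 0.443 and 0.710 CPM, and it did not pass. Of the 13 fusion accessory and OPA1 processing genes tested 10 were positive and 0 passed (median 0.10), and Miga2, a mitoguardin that assists fusion, had the largest value, 0.22 (SE 0.31). Cristae genes had 9 of 11 positive (median 0.20), transport genes 5 of 5 (median 0.11) and content genes 15 of 20 (median 0.19). Against sEVCTRL the medians of these lists, in the same order, were 0.12, 0.06, 0.05, 0.12 and 0.15, and Gdap1 had 1.39 (SE 0.74), Pink1 -0.26, Apoo 0.45, Kif5b 0.23 and Slc25a4 0.48. For sEVNORM against sEVCTRL the medians were -0.02, -0.05, -0.12, 0.01 and -0.10, and the largest values were -0.48 for Mtfp1, -0.35 for Pink1, -0.39 for Chchd6, -0.27 for Trak1 and -0.35 for Slc25a4, none past the test. Without sEVCTRL replicate 2, 6 of the 64 (9.38%) passed as higher in sEVHYP against sEVCTRL, beside 8.32% of all genes in either direction. In the same fit 2 of the 64 (3.12%) passed as lower in sEVNORM against sEVCTRL, beside 5.75% of all genes. Without sEVCTRL replicate 3 the first count was 1 (2.76% of all genes), and without sEVCTRL replicate 1 the second was 1 (3.2% of all genes).

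**Figure D5:**
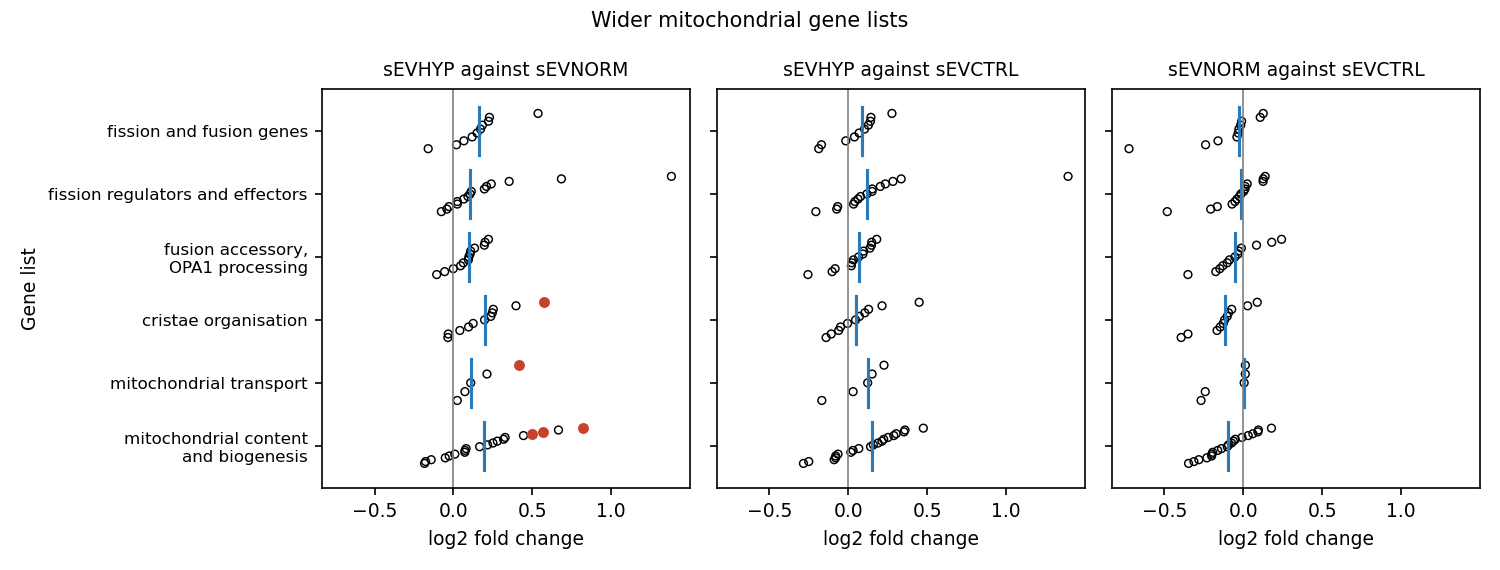
Log2 fold change of the fission and fusion genes and of 5 wider mitochondrial lists in the 3 comparisons, with 1 circle per gene, filled red where the unadjusted P is below 0.05, and a blue bar at the median of each list. The 5 red circles are all higher in sEVHYP than in sEVNORM, and 0 are red in the other panels.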

How the data were processed

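RNA from 8 mammary glands had been sequenced from strand-specific mRNA libraries. The authors used STAR (mm10) for alignment and RSEM 1.2.12 for quantification against Ensembl GRCm38.89, and the deposited estimated counts are whole numbers without normalization (how they were rounded was not given in the sources used here). Groups came from the sample labels and vesicle names from the study. Symbols, positions and exon lengths came from GENCODE M21 (GRCm38), and 0.0389% of counts had no symbol. No mitochondrial chromosome gene is in the table.

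Counts were tested in R 4.3.3 with edgeR 4.0.16 (minimum count 10, TMM, quasi-likelihood F-test, two-sided, one model of 3 groups, 5 residual and 4.08 prior degrees of freedom). A gene passed the test at an unadjusted P below 0.05, the threshold of the study. Adjusted P values are Benjamini-Hochberg over 17858 genes. Intervals are 95% t intervals of the fit. Log2 CPM used a prior count of 2. Correlations used exact permutation of all 40320 pairings. In simulated sEVHYP against sEVNORM data (17858 genes), 40% of genes changed by 0.5 (log2), 88% by 1 and 98.5% by 2 passed unadjusted, and 0%, 0% and 93% adjusted. The changed genes were drawn only from genes with a high mean count. These rates therefore do not apply to genes of few counts, such as Mief2 (20 to 46 counts) and Gdap1.

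Alternatives were DESeq2 1.42.0 and its size factors, 2-group fits, other filters, a replicate block, a muscle covariate and leaving out each library. The members and lists were chosen with earlier results of these data known. Named genes were all members, list genes that passed (up to 3 per direction, otherwise the largest value) and the most alike gene of each member. 1 listed gene is not reported here.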

Additional observations from a re-analysis of the deposited data

How the results depend on the processing

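In 0 members was an adjusted P below 0.05 under any alternative. The number of members that passed unadjusted was 0 in all alternatives for sEVHYP against sEVNORM. It was 0 to 1 over the libraries left out for sEVHYP against sEVCTRL (Dnm1l, without sEVCTRL replicate 2) and 0 to 1 for sEVNORM against sEVCTRL (Mief2, without the same library), and 1 in the latter (Mief2) when each library had to hold 10 counts or more. Correlations of deviations from group means were -0.42 to 0.37 for libraries with equal replicate numbers and -0.37 to 0.47 for unequal ones. Deviations of the 2 sEVHYP libraries mirror each other, so pairs with sEVHYP cannot decide whether the numbers pair the libraries. Between sEVCTRL and sEVNORM the correlations were -0.29, -0.42 and -0.01 for equal numbers and -0.32 to 0.47 for unequal ones. With the replicate block 0 members passed in each comparison. The block turned the sign of Yme1l1 for sEVHYP against sEVNORM (-0.093) and, against sEVCTRL, of Mfn2 (0.12) and Mief1 (-0.0050). It gave 769, 401 and 252 genes instead of 706, 438 and 290 over the table. The muscle covariate turned Mfn1 (-0.067) for sEVHYP against sEVNORM, and Mfn1 (0.10) and Opa1 (0.018) for sEVNORM against sEVCTRL.

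Leaving out single libraries turned the sign of values near 0 and of some larger ones, such as Chchd6, Slc25a4, Pink1, Mfn2 and Miga2. For sEVHYP against sEVNORM the ranges were -0.011 to 0.42 for Mfn2, -0.0065 to 0.073 for Yme1l1 and -0.11 to 0.49 for Miga2. Against sEVCTRL they were -0.040 to 0.39 for Mfn1, -0.26 to 0.18 for Mfn2, -0.013 to 0.11 for Mief1, -0.047 to 0.26 for Yme1l1 and -0.62 to 0.032 for Pink1. For sEVNORM against sEVCTRL they were -0.013 to 0.29 for Dnm1l, -0.18 to 0.20 for Mfn1, -0.11 to 0.070 for Opa1, -0.087 to 0.047 for Fis1, -0.11 to 0.020 for Mff, -0.080 to 0.022 for Mief1, -0.066 to 0.24 for Yme1l1, -0.67 to 0.11 for Chchd6 and -0.59 to 0.015 for Slc25a4. The cause was not tested. A group left with 1 sEVHYP library is assumed to vary like the others.

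Of the wider lists, 8 genes rose for sEVHYP against sEVNORM in fits of only those 2 groups instead of 5, which is 12.5% beside 6.07% of all genes in edgeR and 12.1% beside 4.54% in DESeq2. Over all genes an adjusted P below 0.05 was reached in DESeq2 by 16, 4 and 2 genes with 8 libraries and by 83, 14 and 3 in 2-group fits, in the order sEVHYP against sEVNORM, sEVHYP against sEVCTRL and sEVNORM against sEVCTRL, and by 0 in edgeR. Depth limits Mief2 most, with 20 to 46 counts.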
